A study of Mus musculus with 6 samples.

Results

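The genes described here are 38 genes of glycolysis and of pyruvate metabolism, chosen by name from the 49548 genes measured in Col6a1+ and Col6a1- cancer-associated fibroblasts (CAFs) of mouse colonic adenomas. They comprise 3 glucose transporters, 2 hexokinases, 7 enzymes of upper glycolysis, 4 enzymes that set the level of the allosteric activator of phosphofructokinase, 7 enzymes of lower glycolysis, 4 genes of lactate production and transport, 4 pyruvate dehydrogenase kinases, 3 genes at the entry of the TCA cycle and 4 gluconeogenic enzymes. All 38 genes were above 0 in some library and entered the test, and 35 of them averaged at least 10 normalized counts.

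Glycolysis splits glucose into pyruvate in the cytosol. Pyruvate is then either reduced to lactate, which leaves the cell through monocarboxylate transporters, or oxidized in mitochondria by the pyruvate dehydrogenase complex, which the PDK kinases switch off by phosphorylation. Most steps are catalyzed by several isozymes from separate genes that differ in tissue distribution, and gluconeogenesis bypasses the irreversible steps with enzymes of its own.

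The adenomas came from C57/BL6 mice carrying Col6a1-cre and the Rosa26-mTmG reporter, which were given AOM, a carcinogen, as young adults and then repeated cycles of DSS, an irritant of the colon, in drinking water. In this reporter, Cre replaces membrane Tomato with membrane GFP, so GFP+ cells (Col6a1+ CAFs) are those in which Col6a1Cre was or had been active, and Tomato+ cells (Col6a1- CAFs) are the remaining sorted cells. Each group had 3 libraries, each from tumors pooled from several mice, sorted after removal of cells positive for CD45, EpCAM, CD31 or Ter119. A legend in the study speaks of 3 samples in all, so GFP+ and Tomato+ libraries may come from the same pools. Which libraries share a pool is not stated, and the main test treats them as unpaired. The study describes Col6a1Cre, from earlier work, as marking fibroblasts high in PDGFRa together with perivascular cells, and Col6a1- CAFs as holding trophocytes and most fibroblasts low in PDGFRa, so each group is a mixture of cell types, and every library is from tumors.

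The libraries were read at the 3′ ends of polyadenylated transcripts, and a value below is a normalized count, the authors' count of reads for a gene after scaling between libraries. Normalized counts summed to between 3039152 and 3425249 per library. Replicate 1 of the Col6a1+ CAFs stood apart with 14530 genes detected, against 18770 to 20511 in the other 5 libraries, so the results are also given without it. Col6a1, the gene whose promoter drives the Cre, had 861, 1287 and 1941 normalized counts in Col6a1+ CAFs and 182, 321 and 102 in Col6a1- CAFs, which goes with the labels. Epcam, whose protein was used to remove epithelial cells, still had 615 to 1074 normalized counts in Col6a1+ CAFs and 3107 to 4129 in Col6a1- CAFs. All 12 epithelial markers examined were lower in Col6a1+ CAFs, 7 of them with an adjusted p under 0.05, and their summed level was 5896 to 6654 against 20241 to 34496. Pericyte and smooth muscle markers summed to 46949 to 67183 in Col6a1+ CAFs and 861 to 2941 in Col6a1- CAFs, and pan-fibroblast markers to 40535 to 44685 and 8675 to 15769. Immune markers summed to 53 to 81 and 452 to 845, endothelial markers to 148 to 284 and 203 to 486, and glial markers to 55 to 73 and 29 to 76. Erythroid markers summed to 110 to 1713 and 281 to 482, and trophocyte markers summed to 244 to 489 and 1088 to 1209. The 5 proliferation markers summed to 315 to 577 and 471 to 828, none with an adjusted p under 0.05. Of these, Mki67, Top2a and Birc5 were lower in Col6a1+ CAFs without overlap, while Ccnb1 and Cdk1 overlapped.

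Of the 38 genes, 5 differed between the groups in limma's moderated test at an adjusted p under 0.05. Slc2a3, the gene of a high-affinity glucose transporter, was higher in Col6a1+ CAFs, and Aldoc, Eno3, Pdk4 and Pck1 were lower. The 1 gene called higher is 2.63% of the 38, against 2.66% of the 26402 genes tested, and the 4 called lower are 10.5%, against 1.96%. Among genes averaging at least 10, these shares were 2.86% against 5.15% higher, and 11.4% against 3.67% lower. The median log2 fold change of Col6a1+ over Col6a1- CAFs was -0.42 over the 38 genes and -0.27 over all genes tested, and 28 of the 38 (73.7%) lay below 0, against 58.8% of all genes. All 5 calls were lost when the replicate number was added as a block in limma, with adjusted p-values of 0.0612 to 0.172. No gene of the whole table was called in that fit, while 1851 genes higher and 2567 lower had an unadjusted p under 0.05 in it. With the block on genes averaging at least 10, the same 5 genes were called together with Pfkm, higher, and Tpi1, lower. That makes 2 higher and 5 lower of the 35 genes kept, beside 981 (7.26%) and 871 (6.44%) of all 13515 genes in that fit. Pck1 and Pdk4 passed the filter of 10 only through Col6a1- CAFs, where they averaged 46.3 and 52.0. In Col6a1+ CAFs they averaged 1.0 and 1.67. Their calls under that filter, and their part in its shares, therefore add no support. When genes were instead taken at a raw p under 0.05 and a change of more than 1 on the log2 scale, 5 of the 38 were higher (13.2%, against 6.09% of all genes) and 6 lower (15.8%, against 8.61%). In bulk libraries such as these, a lower value from fewer cells of a type cannot be told apart from one due to less RNA per cell.

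The 3 and 3 libraries did not overlap for 12 of the 35 genes that averaged at least 10, 4 of them higher in Col6a1+ CAFs (11.4%, against 14.2% of all such genes) and 8 lower (22.9%, against 17.6%). Together this is 34.3%, close to the 31.7% found over all such genes, so the count of separated genes is no result about this pathway. The plots of the values and of the fold changes of each gene show them by role.

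**Figure D1:**
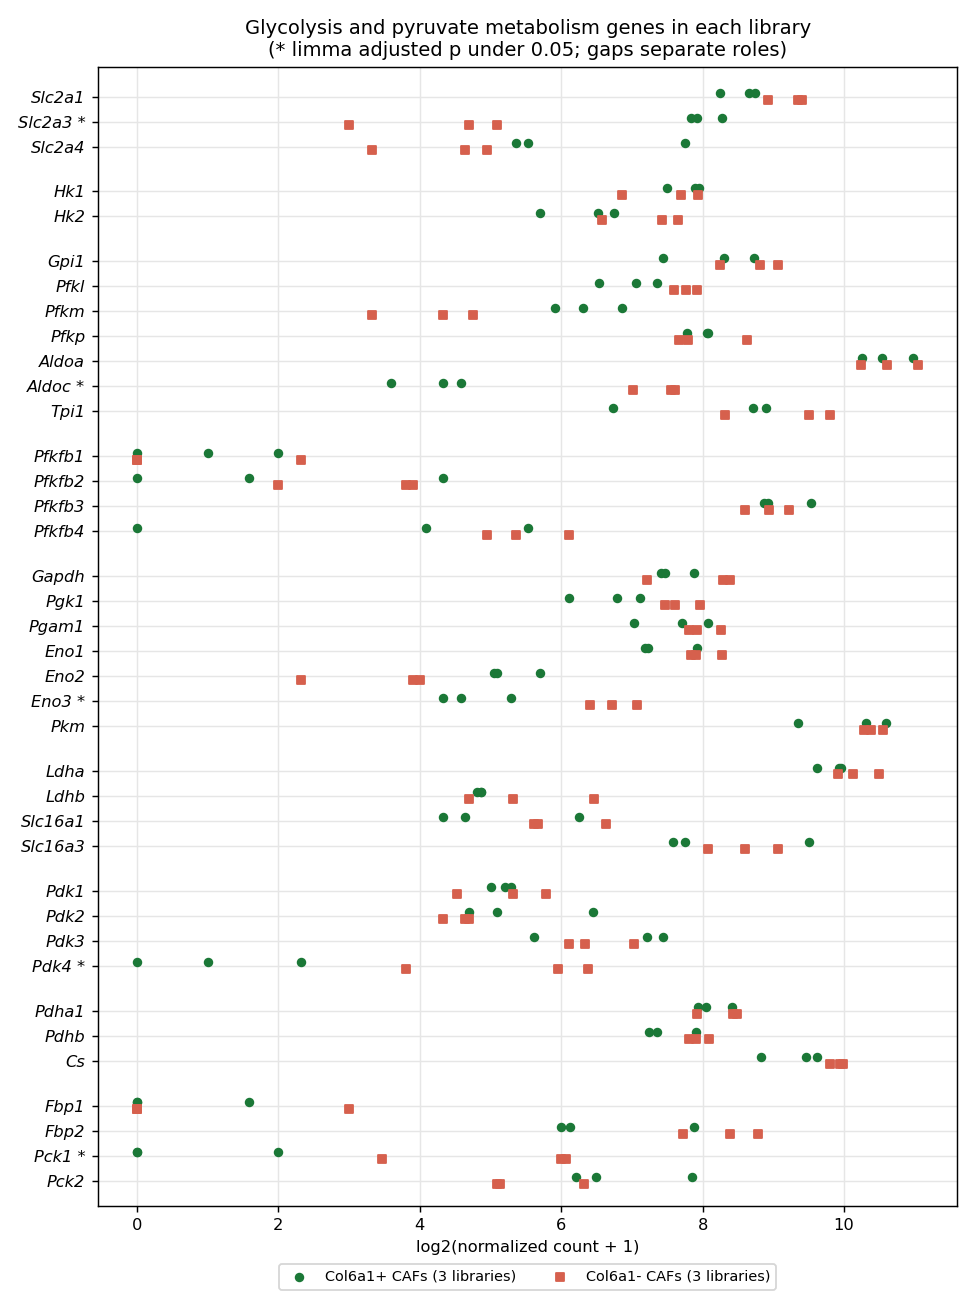
Level of each of the 38 genes in each library as log2(normalized count + 1), with green circles for the 3 Col6a1+ CAF libraries and red squares for the 3 Col6a1- CAF libraries, grouped by role, and an asterisk at the 5 genes with an adjusted p under 0.05. Slc2a3 is the gene with an asterisk whose circles lie to the right, and the squares of Aldoc, Eno3, Pdk4 and Pck1 lie to the right of their circles.

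**Figure D2:**
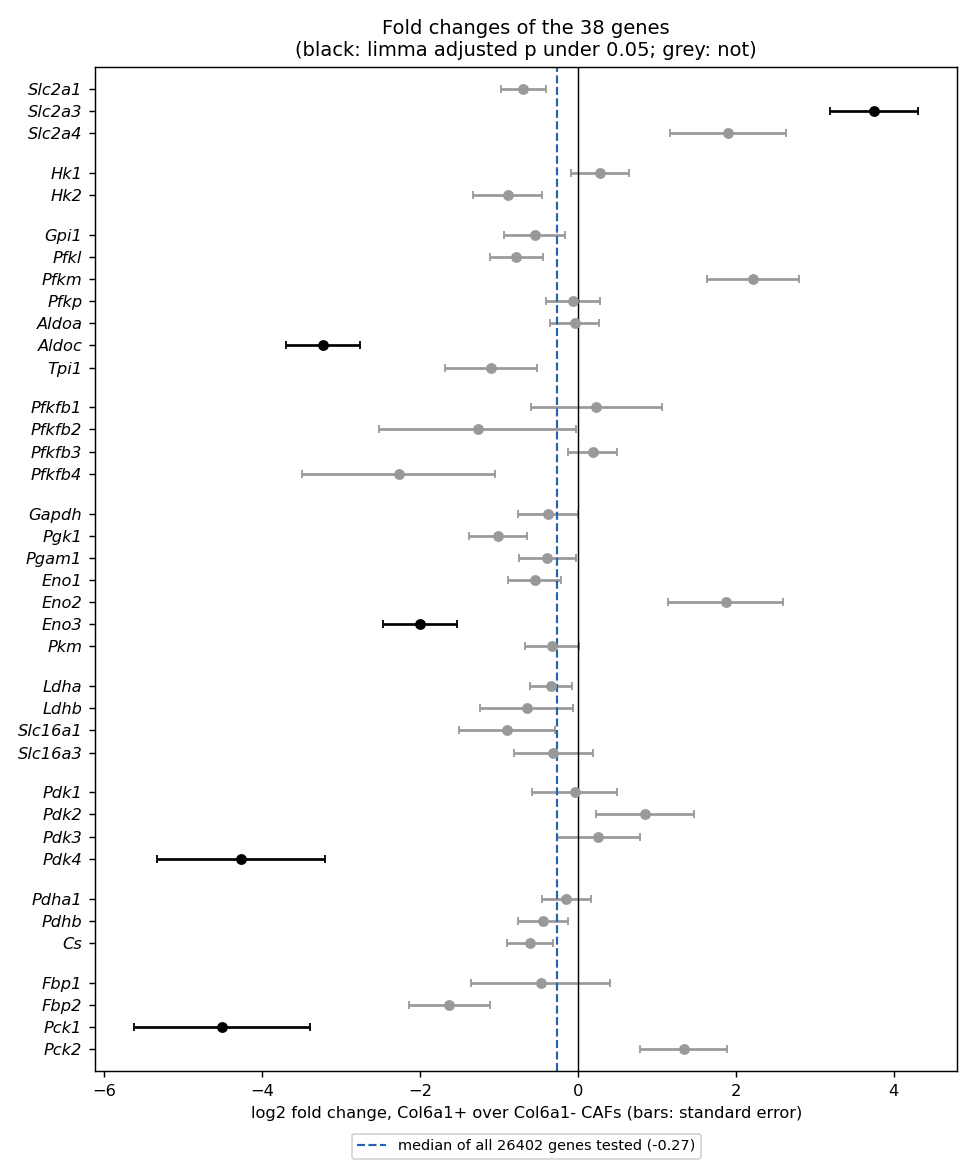
Log2 fold change of Col6a1+ over Col6a1- CAFs for each of the 38 genes, with bars of 1 standard error, black where the adjusted p is under 0.05 and a dashed line at the median of all genes tested, -0.27. The values run from -4.51 for Pck1 to 3.75 for Slc2a3, and 28 of the 38 points lie below 0.

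The 4 genes that were lower in Col6a1+ CAFs are shown with the 250 bases before a transcript start given by RefSeq, since they moved in the same direction. The sequences are from RefSeq on GRCm38.p6, written 5′ to 3′ on the strand of the gene. The RefSeq starts differ from the gene starts of the deposited table, so that the windows of Aldoc, Pdk4 and Pck1 end inside the gene by the table's coordinates, and the marked match of Aldoc lies after the gene start in that table. Capitals mark the core of the hypoxia response element, the sequence bound by hypoxia-inducible factors (ACGTG or GCGTG, on either strand, so that it may read CACGT or CACGC here). For Pck1 they mark a stretch of the cAMP response element (ACGTCA, on either strand), which CREB binds. A single motif is marked per gene, and the ACGTG core and ACGTCA share 4 letters.
Aldoc, chr11:78322823-78323072, plus strand: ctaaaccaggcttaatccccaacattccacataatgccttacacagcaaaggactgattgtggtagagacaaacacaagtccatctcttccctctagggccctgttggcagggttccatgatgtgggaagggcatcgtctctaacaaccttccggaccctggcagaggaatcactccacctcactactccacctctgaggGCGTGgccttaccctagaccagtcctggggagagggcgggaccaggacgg
Eno3, chr11:70656926-70657175, plus strand: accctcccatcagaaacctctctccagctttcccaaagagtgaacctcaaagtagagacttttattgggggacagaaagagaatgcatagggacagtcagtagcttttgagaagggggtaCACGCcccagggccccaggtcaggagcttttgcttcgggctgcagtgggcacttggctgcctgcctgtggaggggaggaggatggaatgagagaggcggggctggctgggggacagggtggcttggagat
Pdk4, chr6:5496279-5496528, minus strand: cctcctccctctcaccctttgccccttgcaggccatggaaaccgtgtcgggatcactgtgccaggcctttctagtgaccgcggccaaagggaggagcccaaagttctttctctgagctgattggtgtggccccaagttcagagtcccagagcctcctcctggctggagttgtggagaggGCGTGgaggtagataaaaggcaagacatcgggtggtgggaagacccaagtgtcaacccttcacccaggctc
Pck1, chr2:173152823-173153072, plus strand: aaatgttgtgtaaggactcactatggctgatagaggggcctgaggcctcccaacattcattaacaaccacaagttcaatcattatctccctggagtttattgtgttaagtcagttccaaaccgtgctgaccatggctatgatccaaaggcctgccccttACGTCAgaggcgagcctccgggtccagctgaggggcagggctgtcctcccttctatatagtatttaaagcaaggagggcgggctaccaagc

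Aldoc has 2 windows in the RefSeq table, of which 1 is shown. Aldoc, Eno3 and Pdk4 each had 1 match to the hypoxia response element core in the window shown, and Pck1 had 1 match to ACGTCA. The window of Pck1 holds no hypoxia core, and those shown for Aldoc, Eno3 and Pdk4 hold no ACGTCA on either strand. The hypoxia core occurs in 38.6% of all 32851 upstream windows of this length and in 40 of the 55 windows of the 38 genes (72.7%), of which 36 had a window. The windows of the 38 genes also hold more G and C, 58.2% against 53.2%. The letters ACGTCA occur in 6.47% of all windows and in 6 of the 55 (10.9%). These matches describe the letters alone.

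Among the glucose transporters, which carry glucose across the plasma membrane, Slc2a3 rose and the others did not pass the test. Slc2a3 (chromosome 6, 122727809 to 122801640, minus strand) encodes GLUT3. It had 228, 242 and 308 normalized counts in Col6a1+ CAFs and 7, 25 and 33 in Col6a1- CAFs. The lowest Col6a1+ library lay far above the highest Col6a1- library. Its log2 fold change was 3.75 (SE 0.56), with a limma adjusted p of 0.00492, and the means were 259.3 ± 42.7 and 21.7 ± 13.3 (SD, n = 3 each). The adjusted p was 0.063 with the replicate block and 0.0399 without Col6a1+ replicate 1. Leaving out Col6a1+ replicate 3 gave 0.059, and leaving out Col6a1- replicate 1, 2 or 3 gave 0.058, 0.0615 and 0.0556. Over all alternatives it lay between 0.00216 and 0.121, and the log2 fold change without 1 library between 3.12 and 4.16.

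Slc2a1 (chromosome 4, 119108711 to 119137983, plus strand), the gene of the widespread transporter GLUT1, had the opposite order. Its normalized counts were 301, 401 and 425 in Col6a1+ CAFs and 487, 648 and 679 in Col6a1- CAFs. The groups did not overlap, with a log2 fold change of -0.69 (SE 0.29) and a limma adjusted p of 0.27. Slc2a4 (chromosome 11, 69942539 to 69948188, minus strand) encodes GLUT4, the insulin-responsive transporter of muscle and fat. It had 214, 45 and 40 normalized counts in Col6a1+ CAFs and 24, 30 and 9 in Col6a1- CAFs. The groups were separate, but Col6a1+ replicate 1 stood far above the other 5 libraries, and the log2 fold change of 1.90 (SE 0.74) had a limma adjusted p of 0.221. Summed over the 3 transporters, the groups overlapped, with 688 to 773 normalized counts in Col6a1+ CAFs and 518 to 721 in Col6a1- CAFs.

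The hexokinases, which trap glucose in the cell by phosphorylation, did not pass the test. Hk1, the widespread isozyme, had 179, 237 and 245 normalized counts in Col6a1+ CAFs and 115, 244 and 206 in Col6a1- CAFs, with a fold change of 0.28 on the log2 scale (95% interval -0.53 to 1.09). Hk2, the inducible isozyme, had 51, 106 and 91 against 94, 171 and 199, a log2 fold change of -0.89 (95% interval -1.87 to 0.08). Both genes overlapped between the groups.

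Of the 7 enzymes of upper glycolysis, from glucose 6-phosphate to the triose phosphates, Aldoc fell and the other 6 did not pass the test. Aldoc (chromosome 11, 78322968 to 78327781, plus strand) encodes the aldolase best known from the brain. It had 19, 11 and 23 normalized counts in Col6a1+ CAFs and 194, 128 and 187 in Col6a1- CAFs. Every Col6a1- library lay far above every Col6a1+ library. The log2 fold change was -3.23 (SE 0.47), with a limma adjusted p of 0.00446, and the means were 17.7 ± 6.11 and 169.7 ± 36.3 (SD, n = 3 each). The adjusted p was 0.0612 with the replicate block and 0.023 without Col6a1+ replicate 1. Leaving out Col6a1- replicate 1, 2 or 3 gave 0.0902, 0.0509 and 0.0868, and over all alternatives it lay between 0.00142 and 0.123.

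Aldoa, the aldolase of muscle and most other tissues, did not follow Aldoc. Its normalized counts were 1222, 1488 and 2019 in Col6a1+ CAFs and 1209, 2120 and 1561 in Col6a1- CAFs. The ranges overlapped almost fully, and the log2 fold change was -0.04 (95% interval -0.73 to 0.65).

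The 3 phosphofructokinase genes, whose products catalyze the committed step, had different orders. Pfkm (chromosome 15, 98092589 to 98132447, plus strand), the muscle subunit, had 115, 78 and 59 normalized counts in Col6a1+ CAFs and 26, 9 and 19 in Col6a1- CAFs. Pfkl (chromosome 10, 77986947 to 78010083, minus strand), the liver subunit, had 92, 162 and 132 against 217, 240 and 192. Pfkm lay higher in every Col6a1+ library and Pfkl lower, without overlap in either case. Pfkm had a log2 fold change of 2.22 (SE 0.58) with a limma adjusted p of 0.0568, just outside the threshold, which it passed at 0.039 when the test was limited to genes averaging at least 10. Its adjusted p lay between 0.0332 and 0.181 over all alternatives. Pfkm overlaps Senp1 on the opposite strand, and whether the counting used strand is not stated, so its value is uncertain. Pfkl had a log2 fold change of -0.78 (SE 0.34) with an adjusted p of 0.30. Pfkp, the platelet subunit, overlapped between the groups, with a log2 fold change of -0.06 (95% interval -0.81 to 0.70).

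Gpi1, which isomerizes glucose 6-phosphate, and Tpi1, which interconverts the triose phosphates, both overlapped between the groups. Gpi1 had 173 to 422 normalized counts in Col6a1+ CAFs and 302 to 533 in Col6a1- CAFs, and Tpi1 had 105 to 477 and 319 to 892. Their log2 fold changes were -0.55 (SE 0.39) and -1.10 (SE 0.58). Tpi1 was lowest, at 105 normalized counts, in Col6a1+ replicate 1 and had limma adjusted p-values of 0.399 in the main test and 0.0376 with the replicate block on genes averaging at least 10, its range over all alternatives being 0.0376 to 0.664.

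The 4 PFKFB genes, whose products make and remove the activator of phosphofructokinase, did not pass the test. Pfkfb3, the isoform known for its high kinase activity, had 738, 487 and 466 normalized counts in Col6a1+ CAFs and 388, 491 and 596 in Col6a1- CAFs, with a fold change of 0.19 on the log2 scale (95% interval -0.49 to 0.87). Pfkfb4 had 0, 16 and 45 against 30, 68 and 40, and Pfkfb2 0, 2 and 19 against 3, 14 and 13. Both were at 0 in Col6a1+ replicate 1 alone. Pfkfb1 reached at most 4 normalized counts in a library and could not be compared at this depth.

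Among the 7 enzymes of lower glycolysis, which yield ATP and pyruvate, Eno3 fell and the others did not pass the test. Eno3 (chromosome 11, 70657202 to 70662513, plus strand) encodes the enolase of muscle. It had 23, 38 and 19 normalized counts in Col6a1+ CAFs and 84, 134 and 104 in Col6a1- CAFs. The lowest Col6a1- library lay above the highest Col6a1+ library. The log2 fold change was -2.0 (SE 0.47), with a limma adjusted p of 0.0395, and the means were 26.7 ± 10 and 107.3 ± 25.2 (SD, n = 3 each). The adjusted p was 0.0955 with the replicate block and 0.0657 without Col6a1+ replicate 1, and leaving out any 1 of the 6 libraries ended the call, at up to 0.182. The lowest value over the alternatives was 0.0129.

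Eno2 (chromosome 6, 124760053 to 124769673, minus strand), the enolase of neurons, had the reverse order, with 33, 51 and 32 normalized counts in Col6a1+ CAFs and 14, 15 and 4 in Col6a1- CAFs. The groups did not overlap, and the log2 fold change of 1.87 (SE 0.73) had a limma adjusted p of 0.221. Eno1, the enolase of most tissues, overlapped between the groups at 145, 149 and 242 against 228, 307 and 238, with a log2 fold change of -0.55 (95% interval -1.30 to 0.19).

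Pgk1 (chromosome X, 106187100 to 106203699, plus strand), whose product makes the first ATP of the pathway, had 68, 137 and 109 normalized counts in Col6a1+ CAFs and 176, 248 and 195 in Col6a1- CAFs. Its groups did not overlap either, and its log2 fold change of -1.01 (SE 0.37) had a limma adjusted p of 0.188. Pgam1, which moves the phosphate of phosphoglycerate, had a log2 fold change of -0.39 (95% interval -1.18 to 0.39). Pkm, the pyruvate kinase of most tissues, had 649, 1263 and 1539 normalized counts in Col6a1+ CAFs and 1332, 1501 and 1243 in Col6a1- CAFs. Its groups overlapped, with a log2 fold change of -0.33 (95% interval -1.08 to 0.43), and reads at 3′ ends do not separate its spliced forms.

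Gapdh and Eno1 have near-identical copies elsewhere in the genome that together held more normalized counts than the genes themselves. Genes with a transcript matching the last 300 bases at 95% identity or more over at least 200 bases numbered 86 for Gapdh and 3 for Eno1. Gapdh itself had 169, 234 and 176 normalized counts in Col6a1+ CAFs and 333, 312 and 147 in Col6a1- CAFs. Its copies together had a mean of 1142 normalized counts, 5.0 times the 228.5 of Gapdh itself. With the copies added, the sums were 1340, 1283 and 1314 against 1635, 1836 and 817, and the log2 fold change moved from -0.38 to -0.04. For Eno1 the copies, led by Gm4735, had 1.92 times the counts of the gene, and adding them moved the log2 fold change from -0.55 to -0.53. Ldhb had 1 copy with 0.402 times its counts, and for Aldoa, Gpi1, Ldha, Pkm and Tpi1 the copies had at most 0.0962 times. The levels of Gapdh and Eno1 are therefore uncertain. None of the 5 called genes had such a copy.

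**Figure D3:**
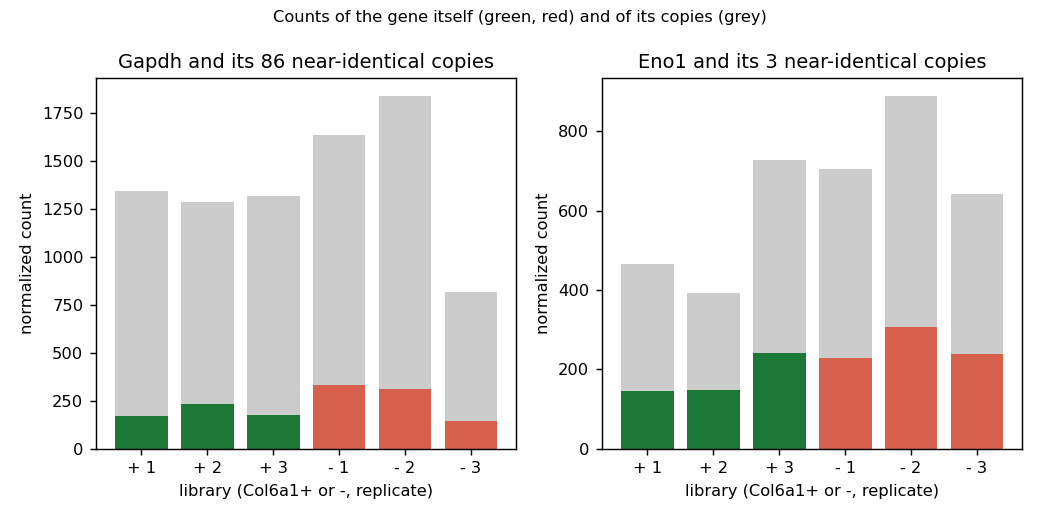
Normalized counts in each of the 6 libraries of Gapdh and Eno1 themselves (green for Col6a1+ CAFs, red for Col6a1- CAFs) with those of their near-identical copies stacked in grey. The grey part is larger than the coloured part in each library for both genes, and the full bars of Gapdh reach 1283 to 1340 in Col6a1+ CAFs and 817 to 1836 in Col6a1- CAFs.

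The genes of lactate production and transport did not pass the test. Ldha, the subunit that favors lactate production, had 990, 787 and 972 normalized counts in Col6a1+ CAFs and 1112, 1438 and 959 in Col6a1- CAFs, and its log2 fold change was -0.34 (95% interval -0.95 to 0.27). Ldhb, the heart subunit, had 28, 27 and 28 against 87, 25 and 39. Col6a1- replicate 1 was the only library of Ldhb well above the others. Slc16a1, a lactate transporter of many tissues, ranged from 19 to 75 and from 48 to 98, and Slc16a3, the transporter linked to lactate export, from 190 to 722 and from 270 to 537. Both had their highest Col6a1+ value in replicate 1, and their log2 fold changes were -0.90 (SE 0.61) and -0.31 (SE 0.50).

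Of the 4 pyruvate dehydrogenase kinases, which shut pyruvate out of mitochondrial oxidation, Pdk4 fell and Pdk1, Pdk2 and Pdk3 did not pass the test. Pdk4 (chromosome 6, 5483351 to 5496309, minus strand) encodes the kinase induced by fasting and fatty acids. It had 0, 4 and 1 normalized counts in Col6a1+ CAFs and 61, 13 and 82 in Col6a1- CAFs. Col6a1- replicate 2 was the lowest of its group but still above every Col6a1+ library. Summed over libraries these are 5 against 156 normalized counts, a ratio of 31.2 with an exact 95% counting interval of 13.1 to 97.4, which leaves out the spread between libraries. The log2 fold change was -4.27 (SE 1.06), with a limma adjusted p of 0.0478. The adjusted p was 0.172 with the replicate block and 0.0929 without Col6a1+ replicate 1. Leaving out any 1 of the 6 libraries ended the call, and the range over all alternatives was 0.0172 to 0.26.

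Pdk1, a kinase known as a hypoxia target, had 36, 38 and 31 normalized counts in Col6a1+ CAFs and 54, 22 and 39 in Col6a1- CAFs. Its ranges overlapped, and its log2 fold change was -0.04 (95% interval -1.25 to 1.16). Pdk2 had 86, 25 and 33 against 25, 24 and 19, and Pdk3 had 48, 172 and 148 against 130, 80 and 68. In both genes Col6a1+ replicate 1 departed from the other libraries of its group, upward for Pdk2 and downward for Pdk3, and their log2 fold changes were 0.85 (SE 0.62) and 0.26 (SE 0.53).

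At the entry of the TCA cycle, none of the 3 genes passed the test. Cs (chromosome 10, 128337832 to 128362479, plus strand), which encodes citrate synthase, had 702, 454 and 785 normalized counts in Col6a1+ CAFs and 1013, 985 and 888 in Col6a1- CAFs. The groups did not overlap, and the log2 fold change of -0.61 (SE 0.29) had a limma adjusted p of 0.343. Pdha1 and Pdhb, which encode subunits of pyruvate dehydrogenase, had log2 fold changes of -0.15 (95% interval -0.83 to 0.53) and -0.44 (95% interval -1.15 to 0.27).

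Of the 4 gluconeogenic enzymes, Pck1 fell. Pck1 (chromosome 2, 173153048 to 173159273, plus strand) encodes the cytosolic phosphoenolpyruvate carboxykinase, the gene known for its cAMP-responsive promoter, printed above. It had 0, 3 and 0 normalized counts in Col6a1+ CAFs and 66, 63 and 10 in Col6a1- CAFs. The Col6a1- libraries spread widely, and the lowest of them still lay above the Col6a1+ libraries. The sums of 3 and 139 normalized counts give a ratio of 46.3, with an exact 95% counting interval of 15.5 to 227. That interval treats scaled counts as reads and leaves out the spread between libraries. The log2 fold change was -4.51 (SE 1.11), with a limma adjusted p of 0.0462. The adjusted p was 0.107 with the replicate block and 0.0983 without Col6a1+ replicate 1. Leaving out any 1 of the 6 libraries ended the call, and the range over all alternatives was 0.00712 to 0.238.

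Pck2, the mitochondrial counterpart of Pck1, had 230, 89 and 73 normalized counts in Col6a1+ CAFs and 79, 34 and 33 in Col6a1- CAFs. Its highest Col6a1- value, in replicate 1, lay above the lowest Col6a1+ value, and the log2 fold change of 1.34 (SE 0.55) had a limma adjusted p of 0.253. Fbp2, the fructose bisphosphatase of muscle, had 233, 63 and 69 against 211, 439 and 333, with a log2 fold change of -1.63 (SE 0.51) and a limma adjusted p of 0.116. Its overlap came from Col6a1+ replicate 1. Fbp1, the liver enzyme, was at 0 in 4 of the 6 libraries and reached 7 normalized counts, which is too low to compare at this depth.

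Between the groups, the epithelial, immune and trophocyte marker sums were lower in Col6a1+ CAFs like the 4 lower genes, and the pericyte and smooth muscle and the pan-fibroblast sums were higher like Slc2a3. Calls numbered 7 of 12 epithelial markers, S100a8 and S100a9 of the immune markers, 2 of 4 trophocyte, 8 of 9 pericyte and smooth muscle and 4 of 7 pan-fibroblast markers. Most of the immune sum in Col6a1- CAFs came from S100a8, at 211, 387 and 167, and S100a9, at 229, 391 and 162. No other immune entry passed 43 in a library. Among the Col6a1- CAF libraries, the epithelial sums were 20241, 34496 and 24834. In replicate 2, the highest, Aldoc and Pdk4 were lowest and Eno3 was highest, while Pck1 was lowest in replicate 3. Slc2a3 had 7, 25 and 33 there, beside pericyte and smooth muscle sums of 2941, 2652 and 861 and pan-fibroblast sums of 15769, 15003 and 8675. In Col6a1+ CAFs Slc2a3 had 228, 242 and 308. The pericyte and smooth muscle sums there were 67183, 46949 and 63752, and the pan-fibroblast sums 40535, 43994 and 44685. The part of these cell types in the results was not tested.

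Ratios between isozymes of the same step were compared within each library, which largely removes the scaling of the library, except where a count is near 0. For each of 12 pairs, the log2 ratio of normalized counts plus 1 was taken, and the groups were compared with an exact two-sided permutation test, which cannot go below 0.1 with 3 against 3. The groups did not overlap in 8 pairs, each with an exact p of 0.1 and 0.15 after adjustment over the 12 pairs. With libraries of equal replicate number matched, an exact two-sided test flipping the signs of the 3 differences gave 0.25 for these 8. That is the lowest p such a test can give. The pairs were chosen with earlier results known and include Slc2a3, Aldoc, Eno3 and Pdk4, and among single genes averaging at least 10 the groups were separate in 31.7%, so the number of separate pairs carries no further weight.

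The transporter ratio Slc2a3/Slc2a1 was -0.40, -0.73 and -0.46 in Col6a1+ CAFs and -5.93, -4.64 and -4.32 in Col6a1- CAFs. The ratio was higher in every Col6a1+ library, by 4.44 on the log2 scale between the means. The aldolase ratio Aldoc/Aldoa was -5.93, -6.96 and -6.40 against -2.63, -4.04 and -3.05, a difference of -3.19. The kinase ratio Pdk4/Pdk1 was -5.21, -2.96 and -4.00 against 0.17, -0.72 and 1.05, a difference of -4.23. Because Pdk4 was near 0 in Col6a1+ CAFs, that difference depended on the added count and was -5.67 with 0.1 added.

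The phosphofructokinase ratio Pfkm/Pfkl was 0.32, -1.04 and -1.15 in Col6a1+ CAFs and -3.01, -4.59 and -3.27 in Col6a1- CAFs, a difference of 3.00. For enolase, Eno2/Eno1 differed by 2.42 and Eno3/Eno1 by -1.45, so the neuronal and the muscle form took opposite directions relative to Eno1. Hk2/Hk1 was lower by 1.17 in Col6a1+ CAFs, at -1.45 ± 0.32 against -0.28 ± 0.23 (SD, n = 3 each), and Pfkp/Pfkl was 0.99 ± 0.26 against 0.27 ± 0.41. The other 4 pairs overlapped. These were Ldhb/Ldha with a difference of -0.31 (exact p = 0.7), Slc16a3/Slc16a1 with 0.59 (exact p = 0.4), Pdk2/Pdk1 with 0.90 (exact p = 0.3) and Pdk3/Pdk1 with 0.31 (exact p = 0.7).

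**Figure D4:**
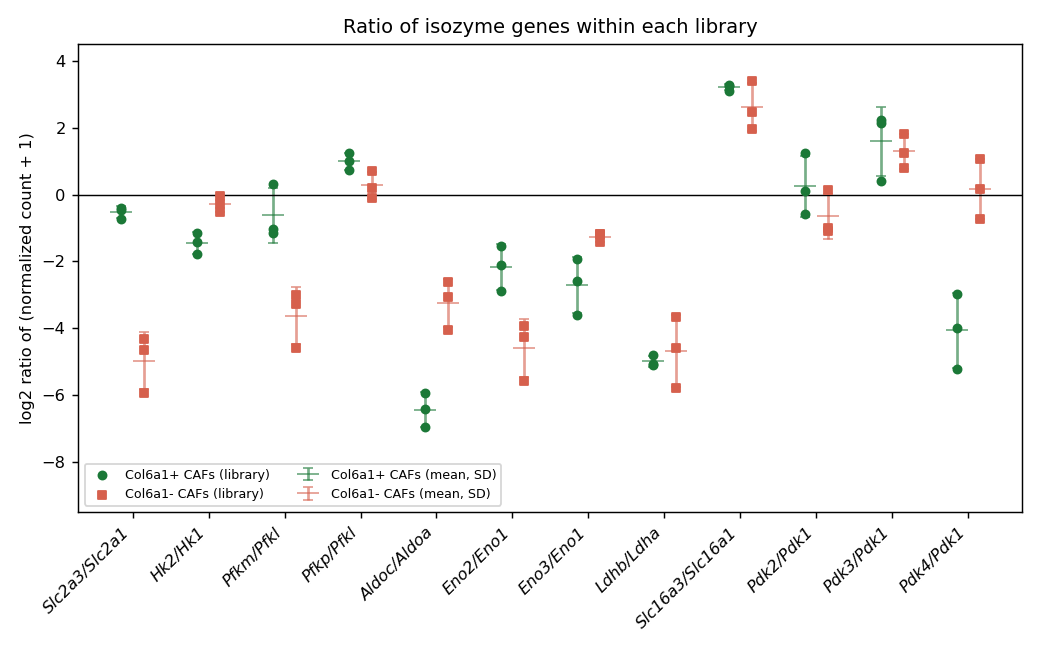
Log2 ratio of normalized counts plus 1 for 12 pairs of isozyme genes in each library, with green circles for Col6a1+ CAFs, red squares for Col6a1- CAFs and bars for the mean and SD of 3 libraries. The circles and squares are separate in 8 pairs, most widely for Slc2a3/Slc2a1 with a difference of 4.44 and Pdk4/Pdk1 with -4.23.

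Summed over the 38 genes, normalized counts were 8524, 8675 and 10254 in Col6a1+ CAFs and 10059, 13034 and 10552 in Col6a1- CAFs, or 0.257% to 0.299% and 0.327% to 0.397% of all normalized counts. The shares did not overlap, while the sums did. Of the 35 genes that averaged at least 10, Col6a1+ replicate 1 was the lowest of its group for 18 and the highest for 11. Col6a1- replicate 2 was the highest of its group for 18 and the lowest for 5. Col6a1- replicate 1 was the lowest for 15 and the highest for 12. By role, the sums of lower glycolysis were 1216, 2079 and 2386 against 2390, 2822 and 2171, those of upper glycolysis 1945, 2742 and 3397 against 2469, 4315 and 3353, and those of the gluconeogenic enzymes 463, 157 and 142 against 363, 536 and 376. All 3 role sums overlapped between the groups. The sums of pyruvate dehydrogenase subunits and citrate synthase did not, at 867 to 1267 against 1353 to 1629. Most of that sum was Cs, already described as separate, and Pdha1 and Pdhb each overlapped between the groups. Among all single genes averaging at least 10, the groups were separate in 31.7%.

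The other genes of these pathways were taken from lists of 76 genes, 69 of which were tested. Of these, 2 rose and 2 fell in Col6a1+ CAFs by limma's adjusted p, 2.9% in each direction against 2.66% higher and 1.96% lower over all genes, and the median log2 fold change was -0.33. Pdp2, the phosphatase that reactivates pyruvate dehydrogenase and so opposes the PDK kinases, had 31, 38 and 41 normalized counts in Col6a1+ CAFs and 255, 152 and 262 in Col6a1- CAFs. It fell without overlap, by 2.54 on the log2 scale (SE 0.40, limma adjusted p = 0.00602), in the same direction as Pdk4. Pgd, the third enzyme of the oxidative pentose phosphate pathway, had 499, 543 and 390 against 1166, 1485 and 941, and a log2 fold change of -1.31 (SE 0.29, limma adjusted p = 0.029). H6pd, which starts that pathway in the endoplasmic reticulum, rose at 237, 279 and 642 against 56, 98 and 31, with a log2 fold change of 2.63 (SE 0.51, limma adjusted p = 0.0164). Slc2a10, the gene of the transporter GLUT10, rose at 298, 131 and 202 against 72, 50 and 18, with a log2 fold change of 2.27 (SE 0.55, limma adjusted p = 0.0424). All 4 calls were lost with the replicate block, at adjusted p-values of 0.068 to 0.145. Leaving out any 1 of the 6 libraries ended the calls of Pgd, H6pd and Slc2a10, and for Pdp2 leaving out Col6a1- replicate 1 or 3 did, at 0.0903 and 0.0911. Over all alternatives the adjusted p lay between 0.00298 and 0.124 for Pdp2, 0.00904 and 0.171 for Pgd, 0.00905 and 0.183 for H6pd, and 0.0173 and 0.177 for Slc2a10.

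By list, 1 of 19 other glycolysis genes tested was called higher and none lower, with a median log2 fold change of -0.34, and 1 of 12 other pyruvate metabolism genes was called lower, with a median of -0.20. None of the 18 TCA cycle genes was called in limma's test, where 1 had an unadjusted p under 0.05 with a log2 fold change below -1, and their median was -0.30. The 9 pentose phosphate genes had a median of -0.67, and 8 of them lay below 0, H6pd being the exception. The 11 genes of glycogen and glucose 6-phosphatase tested had a median of -0.11 and no call. These medians stand beside -0.42 for the 38 genes and -0.27 for all genes.

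**Figure D5:**
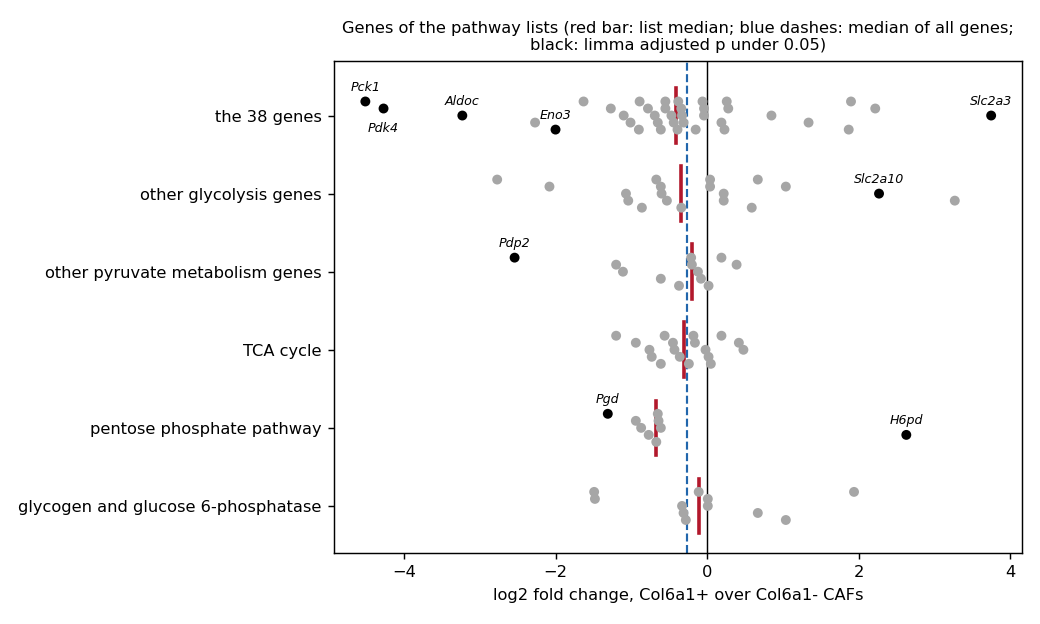
Log2 fold change of Col6a1+ over Col6a1- CAFs for each gene tested of the 38 genes and of 5 lists of related pathways, 1 point per gene, black where the adjusted p is under 0.05, with a red bar at the median of a list and a dashed line at -0.27, the median of all genes. The medians of the lists lie between -0.67 and -0.11, and the 9 named black points are Slc2a3, Aldoc, Eno3, Pdk4, Pck1, Slc2a10, H6pd, Pdp2 and Pgd.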

How the data were processed

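Expression was measured by 3′ mRNA sequencing (QuantSeq, Ion Proton) in 6 libraries, 3 of Col6a1+ and 3 of Col6a1- CAFs, grouped by the titles of the samples. According to the submitters' processing notes and the study's methods, reads were mapped to mm10 with TopHat2 and Bowtie2 and normalized with DESeq, and whether the counting used strand is not given in the sources used here. The authors deposited 1 table of log2 values, taken after adding 1 to each normalized count, and 100% of the values gave whole normalized counts within 0.01. These carry the authors' scaling, so the read depth is not known from them, and intervals on counts cover counting error only. A further 6 per-sample columns, and the authors' own fold changes, p-values and false discovery rates of the same contrast, were not used.

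The deposited log2 values were fitted with limma 3.58.1 in R 4.3.3 (lmFit, eBayes with trend) on the 26402 genes above 0 in some library. P-values were adjusted over all of them by the Benjamini-Hochberg method, and a call means an adjusted p under 0.05. Fold changes are on the log2(normalized count + 1) scale, which understates changes of low genes. A run of the fit on simulated counts, with the same dispersion for every gene and no replicate structure, concerns the code only and not the calls here. The 38 genes, the pathway lists, the isozyme pairs and the marker lists were chosen with earlier results of these data known. Genes given with full values are those called, and those averaging at least 10 normalized counts whose libraries did not overlap between the groups, and pathway genes are named where called. Other genes are described by level and range.

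Alternatives were scaling by library size alone, a mean of at least 10, at least 10 in every library, a pseudocount of 0.1, limma-voom, the replicate block with and without a mean of at least 10, unadjusted p-values with an absolute log2 fold change over 1, and leaving out each library in turn, with the filter of 1 normalized count applied again. Adding near-identical copies (BLAST 2.17.0 against the GENCODE transcripts) and leaving out both libraries of replicate 1 were chosen after seeing the data. Deviations from the group means were correlated over genes with a mean of at least 10. The correlations were 0.245, 0.125 and 0.144 for pairs sharing a replicate number and -0.245 to 0.15 for other pairs. The highest of the other pairs, 0.15, lay above 0.125 and 0.144, so the correlations do not settle whether equal numbers mark pairs. The main fit was made without pairs. The replicate block treats equal numbers, taken from the titles, as pairs. A legend in the study speaks of 3 samples in all, each a pool of tumors from several mice, without saying which sorted fractions came from 1 pool. P-values measure the spread between these libraries. Tables and plots were made with Python 3.11.15, NumPy 2.4.6, pandas 2.3.3 and Matplotlib 3.10.9.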

Additional observations from a re-analysis of the deposited data

How the results depend on the processing

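Of all genes, 703 were called higher and 517 lower. With the replicate block, and without both libraries of replicate 1, these counts were 0 and 0, and 0 of the 38 genes were called in either direction. With the block on genes with a mean of at least 10, 981 genes were called higher and 871 lower, and 2 and 5 of the 35 kept from the 38. Leaving out 1 library gave 11 to 453 genes higher and 1 to 442 lower, and 0 to 1 and 0 to 2 of the 38 genes. A pseudocount of 0.1 gave 336 genes lower and 1 of the 38, limma-voom 1006 genes lower, and unadjusted p-values with an absolute log2 fold change over 1 gave 1607 higher, 2273 lower, and 5 and 6 of the 38. A mean of at least 10 gave 2 higher and 4 lower of the 35 it kept, beside 815 and 608 of the 13515 genes in that fit. At least 10 in every library gave 0 higher and 2 lower, beside 696 and 458 of the 9473 genes in that fit. That filter left out Slc2a3, Pdk4 and Pck1, so their calls were not tested again. Aldoc and Eno3 kept their calls, at limma adjusted p-values of 0.00142 and 0.0129. The median of all genes in that fit was -0.03 in place of -0.27. The median of the 38 genes stayed below 0 under each alternative. None of the 12 genes called or separate between the groups changed direction, while 10 of the other genes (Hk1, Pfkp, Aldoa, Pfkfb1, Pfkfb3, Pkm, Slc16a3, Pdk1, Pdk3 and Fbp1), changed sign when some single library was left out. Of the isozyme ratios, Ldhb/Ldha turned to 0.20 without Col6a1- replicate 1 and Pdk3/Pdk1 to -0.01 without Col6a1+ replicate 3, within ranges of -0.87 to 0.20 and -0.01 to 0.90 when 1 library was left out. The cause of these changes was not tested, beyond the fewer libraries or genes that some alternatives leave. With 3 libraries a group, genes under about 10 normalized counts (Pfkfb1, Pfkfb2, Fbp1) gave no usable comparison.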
